A study of Zea mays with 448 samples.

Results

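The F1 hybrids of the teosinte inbred TIL25 with the maize inbreds B73, Oh43 and W22 were taken from an allele-specific RNA-seq survey of maize and its wild progenitor. Members were chosen by parentage alone: a library belonged here if its labels gave TIL25 as the teosinte parent and B73, Oh43 or W22 as the maize parent. This gave 22 libraries out of the 180 F1 libraries in the series, which also held 88 libraries of inbred parents. There were 9 ear libraries (4 of B73xTIL25, 3 of Oh43xTIL25 and 2 of W22xTIL25), 7 leaf libraries (3, 2 and 2 in the same order of crosses) and 6 stem libraries (2 of each cross). They were set against 93 libraries of 16 other crosses in which the same 3 maize inbreds were mated to 8 other teosinte inbreds, TIL01, TIL03, TIL05, TIL09, TIL10, TIL11, TIL14 and TIL15. Each F1 was the untreated progeny of an inbred maize and an inbred teosinte plant, so both members of every allele pair lay in the same nuclei. Ears were immature, and leaf and stem came from seedlings, with the shoot apical meristem in the stem sample. The labels number the libraries of a cross and tissue as biological replicates.

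Teosinte (Zea mays ssp. parviglumis) is a branched grass with small, hard-cased ears, and maize is its domesticated form. In an F1 the maize and the teosinte copy of a gene meet the same transcription factors, so unequal transcript numbers from the 2 copies point to differences carried by the copies themselves, which is called cis regulation, whereas differences between the parents that vanish in the F1 act in trans. The measurement here was the number of reads that carried the maize and the TIL25 base at sites where the parents differ, summed over the sites of a gene. A read over several sites was counted at each of them. The log2 ratio of maize over TIL25 reads is positive where the maize allele was more abundant, and the maize share is the same quantity as a percentage of reads, with 50% for equal alleles.

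The 22 libraries held between 1853099 and 3181176 allele reads (median 2350670), against 1024803 to 2999638 in the other F1 libraries. Sites that told the parents apart numbered 119428 in 28812 genes for B73xTIL25, 100059 in 24129 genes for Oh43xTIL25 and 106743 in 25560 genes for W22xTIL25, with a median of 3 sites per gene. More sites were counted in B73xTIL25 and W22xTIL25 than in any other cross of the same maize parent (73462 to 97412 with B73 and 68693 to 80464 with W22), and 46.8% of the B73xTIL25 sites, 35.8% of the Oh43xTIL25 sites and 50.0% of the W22xTIL25 sites were used in no other cross of that maize parent. Over all genes the maize share was 49.2 to 51.2% in the 22 libraries, with Wilson 95% intervals at most 0.144 percentage points wide that cover counting error only. The other F1 libraries ranged from 47.9 to 80.7%, and from 47.9 to 53.6% once B73xTIL01 and B73xTIL05 were set aside. The crosses of TIL25 to CML103 and Mo17 stood apart, at 31.1 to 31.9% and 96.3 to 99.4%, and enter no main comparison below. They were added only in an alternative to the allele tests of leaf and stem. Tissue labels fitted the marker genes that could be read: kn1, the homeobox gene of shoot meristems, had a median of 300.4 CPM (ear), 0 CPM (leaf) and 154.1 CPM (stem), where CPM scales counts to the allele reads of the library, the C4 enzyme gene me3 had 2280 CPM in leaf, 18.3 CPM in ear and 14.4 CPM in stem, and the floral genes bde1 and zap1 were at 0 in leaf and stem. No reads fell on ssu1, ra1 or zag1 in any tissue, so these 3 markers checked nothing.

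Some libraries of one cross differed from their fellows over short chromosome stretches. In windows of 1 Mb, 6 of the 400 to 604 windows examined per library, over all 22 libraries, lay more than 25 percentage points from the median of their cross. B73xTIL25 leaf replicate 1 and stem replicate 2 stood -50.9 and -48.8 points from it in the window that ends at 230 Mb of chromosome 2. Oh43xTIL25 ear replicates 1 and 3 and leaf replicate 1 stood -31.6, -30.2 and -30.3 points from it in the window that starts at 170 Mb of chromosome 8, and Oh43xTIL25 stem replicate 2 was 35.3 points higher in a window near the end of chromosome 7. Counts of genes are therefore also given without these 6 libraries where they moved.

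Allele ratios were tested gene by gene in each tissue with edgeR, with the library as a block, and a gene is called here when its Benjamini-Hochberg adjusted p was below 0.05. In ear 4305 of 10378 genes were called (41.5%), 2130 with more maize (20.5%) and 2175 with more TIL25 transcript (21%). In leaf 3597 of 9513 genes were called (37.8%), 1823 toward maize (19.2%) and 1774 toward TIL25 (18.6%). In stem 3552 of 10205 genes were called (34.8%), 1709 toward maize (16.7%) and 1843 toward TIL25 (18.1%). In the median neither allele was favoured, with log2 ratios over all tested genes of 0.01 (ear), 0.01 (leaf) and -0.01 (stem). Most differences were small. The median size among called genes was 0.57 on the log2 scale (ear), 0.66 (leaf) and 0.64 (stem), and only 974, 1009 and 956 called genes differed by at least 2-fold. More of the latter were toward TIL25, with 526 against 448 toward maize (ear), 529 against 480 (leaf) and 528 against 428 (stem). The sign was the same in the 3 crosses for 79.7% of called genes (ear), 79.7% (leaf) and 80.1% (stem), against 49.1%, 47.6% and 48.4% of all tested genes. The call was made on the mean over these same crosses, which favours genes with 1 sign. The gap is therefore partly built in and is not separate support. With the 3 crosses as the units in place of the libraries, 2.36% of the genes tested were called (ear), 1.503% (leaf) and 0.823% (stem), and 48 of the 69 allele ratios of single genes followed here did not pass the threshold. Without the libraries that stood apart over a stretch, 3407, 2517 and 2810 were called.

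Of 8619 genes tested in all 3 tissues, 1611 were called in each of them, and 1558 of these leaned to the same allele everywhere, 751 to maize and 807 to TIL25. Those 1611 genes made up 44.4% of the ear calls, 50.2% of the leaf calls and 52.4% of the stem calls among the shared genes. At the far end stood genes of which 1 allele was read almost exclusively. The maize alleles of GRMZM2G446865 (chromosome 3, from 95872556 in B73 AGPv2, the build of all coordinates here) gave 0 reads in every library, against 1662 TIL25 reads (ear), 718 (leaf) and 1009 (stem). With a floor of 3 reads over the group, maize was at least 554-fold lower in ear and at least 336-fold lower in stem. AC205897.3_FG002 (chromosome 8, from 109041588) had 0 maize against 741 TIL25 reads (ear), 1 against 682 (leaf) and 0 against 1153 (stem). GRMZM2G162253 (chromosome 5, from 55209495) likewise had 0 against 936 in ear and 0 against 659 in stem. In each of these 3 genes at most 1 maize read was found per tissue, summed over the 3 crosses.

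The opposite pattern was met in GRMZM2G133721 (chromosome 10, 111856399 to 111861406), with 1128 maize reads and 1 TIL25 read (ear), 1682 and 0 (leaf) and 3232 and 2 (stem), so that TIL25 was at least 561-fold lower in leaf. GRMZM2G101390 (chromosome 2, from 217688020) had 1513 maize and 2 TIL25 reads (ear), 464 and 24 (leaf) and 972 and 0 (stem). In the inbred parents GRMZM2G446865 gave 0 reads in both B73 ears, while the TIL25 ears had up to 308. GRMZM2G133721 differed from that: the 2 B73 inbred ears had 0 and 3 reads although B73xTIL25 ears held 317 maize reads, whereas the stems of the Oh43 inbred had 516 and 741. What set the B73 inbred apart from its own F1 at this gene was not tested.

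Among genes of known role, tb1 comes first because selection on this TCP transcription factor gene, a repressor of branch outgrowth, is a central case of maize domestication. The gene (AC233950.1_FG002, chromosome 1, 265746677 to 265747682) had reads mainly in ear, where the maize share in the 9 libraries ran from 53.3 through a median of 71.4 to 75.7%. Every library lay above 50%, over 461 reads in all, with a log2 ratio of 1.15 (SE 0.17, adjusted p = 1.12e-06). By cross the maize share was 71.2% with B73, 61.7% with Oh43 and 73.8% with W22. In stem 30 maize and 19 TIL25 reads were too few to test, and leaf had 0. The inbreds ran the same way, with 40 and 39 tb1 reads in B73 ears against 11 and 3 in TIL25 ears. The mean ratio of tb1 was 1.15 in TIL25 F1s and 1.04 in F1s of the other teosintes, a fitted difference of 0.16 that did not pass the threshold (SE 0.49, adjusted p = 0.987). The study states that TIL03 and TIL09, which belong to the other teosintes compared here, carry the maize haplotype at tb1. The comparison group therefore takes in inbreds with a maize-type allele.

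The MADS-box gene zagl1 (GRMZM2G026223, chromosome 1, 4862072 to 4863883), another gene named by the study among its domestication candidates, had a maize share of 57.1 to 80.2% in ear (median 61.8%) and of 60.9 to 92.3% in leaf (median 72.3%). Maize exceeded TIL25 in all 9 ear and all 7 leaf libraries, with log2 ratios of 0.89 (SE 0.15, adjusted p = 1.69e-05) in ear and 1.33 (SE 0.30, adjusted p = 0.00195) in leaf. Against the other teosintes zagl1 differed by 0.45 in ear (SE 0.26, adjusted p = 0.652). Of the remaining candidates, tga1 had 13 ear reads, and the OsMADS56 homolog, ZmSh1-5.1, ZmSh1.1 and zfl2 had no site that told TIL25 from the 3 maize inbreds.

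Of the listed genes of inflorescence and plant architecture that were matched by name and tested in ear, 3 of 8 were called, each toward maize. These were zagl1, kn1 and zag2, against 41.5% of all genes tested. The list also names tb1, which was not matched to its gene model by name. The counts and medians of the list therefore leave out tb1, called toward maize in ear as given above. The maize share of kn1, which maintains shoot meristems, was 50.5 to 57.7%, a small lean of 0.20 (SE 0.05, adjusted p = 0.00189) that was not called without the W22 cross (0.13, adjusted p = 0.0557). The MADS-box gene zag2 stood at 0.40, with 1.28 in Oh43xTIL25, -0.03 in B73xTIL25 and -0.04 in W22xTIL25, and TIL25 was the higher allele in 4 of 9 libraries. In stem 2 of 6 were called, both toward TIL25, against 34.8% of all genes tested in either direction. One was si1 (silky1, chromosome 6, from 84786068), an APETALA3-type floral organ gene, whose maize share in stem was 7.14 to 25.4% (median 11.5%) and whose log2 ratio was -2.67 (SE 0.24, adjusted p = 3.25e-07), with TIL25 the higher allele in 6 of 6 libraries. The other was fea3, a leucine-rich-repeat receptor gene that restrains meristem size, at -1.28 (SE 0.42, adjusted p = 0.0271), with shares spread from 0 to 65.4%. The fea3 call was lost with DESeq2 (adjusted p = 0.0521) and without B73xTIL25 replicate 1 or 2, Oh43xTIL25 replicate 2 or W22xTIL25 replicate 1 (adjusted p = 0.0621, 0.177, 0.108 and 0.215 in edgeR). In ear, where si1 normally acts, its maize share was 37.3 to 60% and its log2 ratio -0.04. The median ratio of the list was 0.13 in ear and -0.13 in stem, against 0.01 and -0.01 for all tested genes. The Tunicate MADS gene zmm19 did not pass the threshold in leaf, at 0.01 (SE 0.10), or in stem, at 0.04 (SE 0.07). In ear it had 60 maize and 81 TIL25 reads, too few with W22 to test, and TIL25 was the higher allele in 7 of 9 libraries.

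Clock and flowering genes leaned both ways. prr59, a pseudo-response regulator of the circadian clock (chromosome 2, from 140885007), leaned to maize in each tissue: its maize share was 53.2 to 83.2% in ear (median 58.4%), 54.1 to 81.5% in leaf (median 59.6%) and 52.7 to 75% in stem (median 63.4%), and no library lay below 50%. The log2 ratios were 0.81 (SE 0.11), 0.86 (SE 0.14) and 0.81 (SE 0.14). In stem the GIGANTEA copies went opposite ways, with gigz1a at 0.25 over 3496 maize and 3022 TIL25 reads and gigz1b at -0.28 over 1734 and 2022 reads. The gigz1a call was lost without the W22 cross (adjusted p = 0.0643) and with the deepest site alone (0.125), and that of gigz1b without the B73 (0.0744) or the W22 cross (0.166). The CONSTANS homologue conz1 stood at 0.43 in stem, a call that was lost with DESeq2 (adjusted p = 0.0578), without the B73 or the Oh43 cross, and without B73xTIL25 replicate 2, Oh43xTIL25 replicate 2 or W22xTIL25 replicate 2 (0.0657 to 0.107 in edgeR). Over the whole flowering list 2 of 6 genes were called toward maize and 2 toward TIL25 in ear, 2 of 7 and none in leaf, and 3 of 5 and 1 in stem, where 41.5%, 37.8% and 34.8% of all genes tested were called in either direction.

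Of 5 C4 photosynthesis genes tested in leaf 4 were called toward TIL25 and 1 toward maize, against 18.6% and 19.2% of all genes tested, with a list median of -0.30 against 0.01 for all. Of the 4, 2 were carried by 1 cross each. The rubisco activase gene rca1, whose fitted mean was -3.32, owed it to Oh43xTIL25, as described further on. The malate dehydrogenase gene mdh6 stood at -0.30 (SE 0.06), from -1.32 in W22xTIL25 against 0.21 in B73xTIL25 and 0.22 in Oh43xTIL25, and maize was the higher allele in 5 of 7 libraries. The NADP-malic enzyme gene me3, which releases CO2 in bundle-sheath cells, was the deepest, with 30207 maize and 36087 TIL25 reads, a maize share of 36.2 to 53.04% (median 46.1%) and a log2 ratio of -0.34 (SE 0.04, adjusted p = 3.87e-06). With the deepest site alone its leaf ratio was -0.0029 (adjusted p = 0.977), so this call rested on the other sites of the gene. In ear and stem, where it had few reads, me3 stood at -1.01 (SE 0.22) and -0.90 (SE 0.22). The pyruvate orthophosphate dikinase gene ppdk1 stood at -0.15 (SE 0.04, adjusted p = 0.00215) with 43581 and 48778 reads, and was not called without the B73 cross (-0.04, adjusted p = 0.690) or without the libraries that stood apart over a stretch (-0.12, adjusted p = 0.0759).

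Of the starch and sucrose genes 4 of 9 were called toward TIL25 in leaf and 2 toward maize, against 18.6% and 19.2% of all genes tested, and the list median was -0.33 against 0.01. The sucrose synthase genes sus1 and sh1 were on the TIL25 side. For sus1 the maize share was 35.2 to 45.96% in leaf (median 42.7%), below 50% in all 7 libraries, with a ratio of -0.47 (SE 0.06), and it was -0.25 (SE 0.03) in ear (-0.08 and not called without the W22 cross, adjusted p = 0.0977), while sh1 stood at -0.69 (SE 0.12) in leaf. On the maize side were the vacuolar invertase gene ivr2 and the sucrose phosphate synthase gene sps1. The maize share of ivr2 was 50.0 to 78.9% in ear, 60.4 to 77.8% in leaf and 56.1 to 74.1% in stem, for ratios of 0.82 (SE 0.22), 0.98 (SE 0.18) and 0.92 (SE 0.17), the first of which was not called without the Oh43 cross (0.62, adjusted p = 0.0837). For sps1 the leaf ratio was 0.78 (SE 0.15). The starch synthase gene du1 was called toward TIL25 in ear, at -0.66 (SE 0.07). It was also called in stem, at 0.30 toward maize, but not with DESeq2 (adjusted p = 0.0735), with the deepest site alone (0.06, adjusted p = 0.893), without the B73 cross (0.03, adjusted p = 0.901), or without B73xTIL25 replicate 1, Oh43xTIL25 replicate 1 or W22xTIL25 replicate 1 or 2 (0.0501 to 0.25 in edgeR). In ear 1 of 8 genes of the list was called toward maize and 2 toward TIL25, against 20.5% and 21% of all genes tested.

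On the lignin list only 1 gene was tested in ear and 2 each in leaf and stem. All were called toward TIL25, as were 21%, 18.6% and 18.1% of all genes tested: cad1 in the 3 tissues and bm1 (brown midrib1), a cinnamyl alcohol dehydrogenase gene of lignin synthesis, in leaf and stem. The maize share of cad1 was 18.9 to 51.1% in ear (median 45.9%), 8.57 to 41.03% in leaf (median 25.7%) and 19.2 to 50.3% in stem (median 36.7%), with ratios of -0.74 (SE 0.09), -1.91 (SE 0.24) and -0.98 (SE 0.16). The low end of each range came from Oh43xTIL25, at 18.9 to 21.3% in ear, 8.57 to 12.0% in leaf and 19.2 to 22.2% in stem. Without the Oh43 cross cad1 stood at -0.11 in ear and was not called (adjusted p = 0.399). bm1 stood at -0.75 (SE 0.18) in leaf and -1.12 (SE 0.31) in stem, but was not called in leaf without the W22 cross (-0.40, adjusted p = 0.209) or in stem without the B73 cross (-0.48, adjusted p = 0.229) or B73xTIL25 replicate 1 alone (adjusted p = 0.0864). Of the anthocyanin genes 1 of 2 was called in stem, toward maize.

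**Figure D1:**
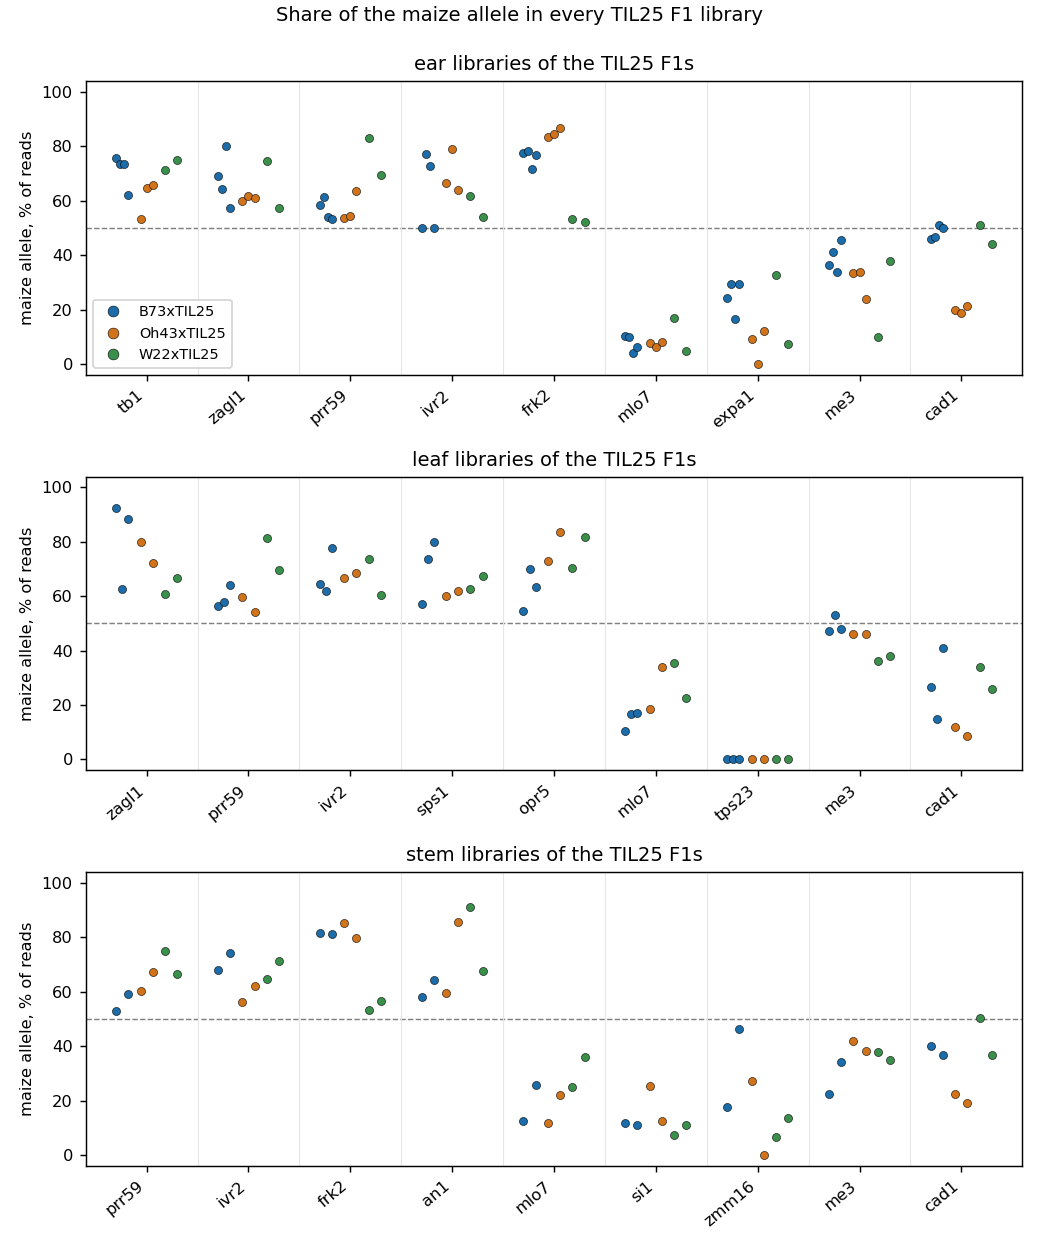
Maize share of allele reads (percent, y axis) for 9 genes in ear, leaf and stem, one point per TIL25 F1 library with at least 5 reads at the gene, coloured by maize parent, with the dashed line at 50%. In ear the points of tb1 run from 53.3 to 75.7% and those of mlo7 from 3.85 to 16.98%, and in Oh43xTIL25 the points of cad1 lie lowest.

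Further genes with a symbol or synonym, those with a synonym chosen after their values were seen, are given singly. frk2, a fructokinase gene, leaned to maize by 1.43 in ear (SE 0.07) with shares of 52.1 to 86.7% and by 1.55 in stem (SE 0.07) with shares of 53.3 to 85.4%. mlo7 (chromosome 9, from 102179223), of the MLO family of membrane proteins, was the most one-sided of these genes toward TIL25 in ear, with 35 maize and 389 TIL25 reads, shares of 3.85 to 16.98% (median 7.69%) and a ratio of -3.39 (SE 0.22, adjusted p = 3.71e-14). It stood at -1.72 (SE 0.26) in leaf and -1.85 (SE 0.25) in stem, and the ear and stem ratios differed by -1.56 (SE 0.35, adjusted p = 0.0088). The expansin gene expa1 stood at -2.36 (SE 0.25) in ear with shares of 0 to 32.7%. In stem an1, which encodes the ent-copalyl diphosphate synthase of gibberellin synthesis, leaned to maize by 1.25 (SE 0.25) with shares of 58.1 to 91.04%.

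The lipoxygenase gene lox11 had a maize share of 9.09 to 37.8% in ear (median 27.7%) and a ratio of -1.36 (SE 0.19). The oxophytodienoate reductase gene opr5 leaned to maize in leaf, with shares of 54.4 to 83.7% (median 70.2%) and a ratio of 1.44 (SE 0.18), and stood at 0.58 in ear and 0.86 in stem, where the call was lost with DESeq2 (adjusted p = 0.0648), without the Oh43 or the W22 cross, and without B73xTIL25 replicate 1, Oh43xTIL25 replicate 1 or W22xTIL25 replicate 1 (0.0963 to 0.191 in edgeR). ts5 (tasselseed5), a cytochrome P450 gene that inactivates jasmonate, leaned to TIL25 in leaf, with shares of 15.0 to 35.2% and a ratio of -1.36 (SE 0.20). For tps23, which makes the insect-induced volatile (E)-beta-caryophyllene (chromosome 10, 57648657 to 57651754), leaf held 0 maize and 687 TIL25 reads, and the maize allele was read in no library. The TIL25 allele was read in all 3 crosses, with 344 reads with B73, 320 with Oh43 and 23 with W22, while in the other crosses the teosinte alleles gave 0 to 319 leaf reads and the maize alleles 0 or 1, except for 11 in W22xTIL01.

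The second question was where TIL25 alleles behaved unlike those of other teosintes. The log2 ratio of the TIL25 crosses was compared with that of the 16 other crosses, with each cross as 1 unit and the maize parent in the model. In ear 1.36% of 9425 genes differed, 91 with a higher maize-to-teosinte ratio in TIL25 F1s (0.966%) and 37 with a lower one (0.393%). In leaf 76 of 8693 differed (0.874%), 57 higher and 19 lower (0.656% and 0.219%), and in stem 86 of 9339 (0.921%), 69 higher and 17 lower (0.739% and 0.182%). A higher ratio means fewer reads assigned to the TIL25 allele, relative to the maize allele beside it, than to other teosinte alleles. The crosses were read at partly different sites. Whether transcript itself or the recovery of reads at those sites differed was not tested. Differences among called genes were large, with median sizes of 1.69, 2.24 and 2.01 on the log2 scale, while the median difference over all tested genes was -0.04, -0.08 and -0.08. The direction was the same with all 3 maize parents for every called gene, a count without the matching share over all tested genes. All but 3 of the ear calls, 75 of the 76 leaf calls and all 86 stem calls were also called in TIL25 F1s alone. Of all genes tested there, 41.5%, 37.8% and 34.8% were called. The TIL25 crosses did not overlap the others for 88, 60 and 70 of the called genes (68.8%, 78.9% and 81.4%), against 2.56%, 2.45% and 2.70% of all genes tested. Direction, shared calls and overlap were read from the crosses that made the calls, so none is separate support. Of the domestication candidates and the genes on the lists of known function, 25 were tested (ear), 25 (leaf) and 23 (stem), and edgeR and DESeq2 each called 0 of them, with 1, 1 and 0 at an unadjusted p below 0.05 in edgeR. Left without B73xTIL01, whose libraries ran up to 80.7% maize, the comparison called 1.39% of genes (ear), 1.24% (leaf) and 1.41% (stem).

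**Figure D2:**
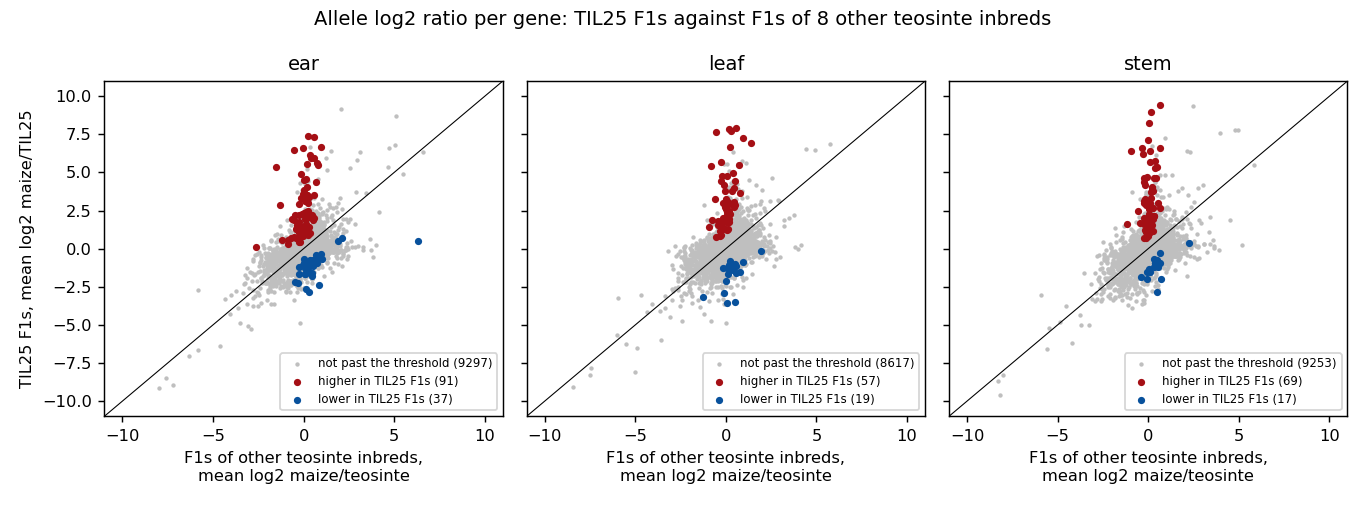
Mean log2 ratio of maize over TIL25 reads in TIL25 F1s (y axis) against the mean log2 ratio of maize over teosinte reads in F1s of the other teosinte inbreds (x axis), one point per gene tested in ear, leaf and stem, with called genes coloured and the diagonal marking equal ratios. Called genes above the diagonal (91, 57 and 69) outnumber those below it (37, 19 and 17).

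Of 7839 genes tested in all 3 tissues, 31 were called in each, 25 with a higher and 6 with a lower ratio in TIL25 F1s. The most one-sided was GRMZM2G456568 (chromosome 6, 147921031 to 147924580). Its maize share in stem was 100% in all 3 TIL25 crosses, against 20.5 to 99.3% in the others (median 49.02%), over 1445 maize and 0 TIL25 reads, so that TIL25 was at least 482-fold lower, and the ratios differed by 10.93 (SE 1.96, adjusted p = 0.0087). In ear the shares were 99.7% with B73, 99.2% with Oh43 and 99.4% with W22, against 14.0 to 100% (median 49.4%), and the difference was 7.66 (SE 1.26, adjusted p = 0.00265). The groups overlapped in ear at 1 cross, Oh43xTIL03, with 71 maize and 0 teosinte reads, and W22xTIL03 came next at 97.8%. With the deepest site alone the leaf and stem differences of GRMZM2G456568 did not pass the threshold (adjusted p = 0.0862 and 0.0572), nor did they against TIL01, TIL03 and TIL11 alone (0.157 and 0.142). In the inbreds the gene gave 570 and 498 reads in B73 ears and 0 in both TIL25 ears.

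GRMZM2G144254 (chromosome 4, 94742386 to 94744957) was one-sided with every maize parent. Its maize share in stem was 100% with B73, 99.4% with Oh43 and 100% with W22, against 43.3 to 65.2% in the other crosses (median 49.7%), a difference of 8.69 (SE 0.51, adjusted p = 3.78e-09), and no other cross came near the 3. The leaf difference was 7.44 (SE 0.58, adjusted p = 2.75e-07) and the ear difference 5.82 (adjusted p = 2.59e-10). B73 ears held 90 and 88 reads of this gene and TIL25 ears 5 and 0. For GRMZM2G125432 (chromosome 5, 201596517 to 201608405) the other teosinte alleles were the more abundant ones: its maize share in ear was 98.4% with B73, 96.8% with Oh43 and 98.3% with W22, against 16.3 to 40.9% (median 24.1%), a difference of 6.92 (SE 0.44, adjusted p = 9.95e-09). A swing across 50% of this kind, TIL25 F1s toward maize and other F1s toward teosinte, was seen in the mean ratios of 45 called genes (ear), 27 (leaf) and 28 (stem). These were among 91, 57 and 69 genes called with the higher ratio in TIL25 F1s. The opposite swing was seen in 29, 15 and 13 of the 37, 19 and 17 genes called with the lower ratio. Both counts stand without the matching count over all tested genes.

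GRMZM2G408703 (chromosome 9, 2137777 to 2145556) also swung toward maize in TIL25 F1s. Its ear maize share was 99.2% with B73, 99.05% with Oh43 and 100% with W22, against 23.1 to 83.3% in 12 other crosses (median 42.1%). The edgeR difference was 7.21 (SE 0.66, adjusted p = 3.43e-06). GRMZM2G150496 (chromosome 2, 3736190 to 3739248) had 0 TIL25 reads in ear, against 92 maize reads with B73 and 59 with W22, TIL25 being at least 84-fold lower over the 3 crosses, where 13 other crosses lay between 50.1 and 62.9%. This ear difference was 8.19 (SE 0.43, adjusted p = 2.06e-08). GRMZM2G150496 was less one-sided in stem, with 26 TIL25 reads and a ratio that was 6.46 lower than in ear (SE 0.90, adjusted p = 0.000222). Of those 26 reads 25 came from Oh43xTIL25, and the ear-stem call was lost with DESeq2 (3.27, adjusted p = 0.176) and without the libraries that stood apart over a stretch (4.41, adjusted p = 0.0525 in edgeR). GRMZM2G067575 (chromosome 8, 156772795 to 156772947) was read in leaf and stem, with 1478 maize and 8 TIL25 reads in leaf and a leaf share of 96.2 to 100% by cross, against 43.9 to 75.9% (median 50.99%), a difference of 7.07 (SE 0.63).

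One of the genes called in the 3 tissues had a known product. GRMZM2G178517 (chromosome 5, 188462705 to 188467483) is annotated as a NIT1-like nitrilase, an enzyme family that acts on nitriles, among them precursors of auxin. In its 9 ear libraries the maize share was 89.2 to 97.8% (median 94.3%), over 1702 maize reads, and it was 96.03% with B73, 91.6% with Oh43 and 92.6% with W22. Of the 13 other crosses with at least 20 reads, none exceeded 62.8%, and the lowest was B73xTIL05 at 39.3%. The difference was 3.84 in ear (SE 0.34, adjusted p = 3.43e-06), 4.34 in leaf (SE 0.50, adjusted p = 6.21e-05) and 3.80 in stem (SE 0.37, adjusted p = 2.07e-05).

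For fewer genes the TIL25 allele took an unusually large share of the reads. GRMZM2G171324 (chromosome 1, 8622091 to 8626334) had 408 maize and 2491 TIL25 reads in ear. Its maize share there was 16.9% with B73, 11.9% with Oh43 and 8.60% with W22, against 17.1 to 82.9% in the others (median 59.4%), and B73xTIL01 supplied the 17.1%. The difference was -3.06 in ear (SE 0.59), -3.54 in leaf (SE 0.53) and -3.29 in stem (SE 0.54). Against TIL01, TIL03 and TIL11 alone none of the 3 passed the threshold (adjusted p = 0.0576 to 0.0586), and with the deepest site alone the ear and stem differences did not (0.0910 and 0.0867). The inbreds held 39 and 38 reads of this gene in B73 ears and 568 and 732 in TIL25 ears. GRMZM2G178807 (chromosome 10, 68419428 to 68421652) had a leaf maize share of 14.5% with B73, 11.3% with Oh43 and 8.86% with W22, against 41.7 to 68.7% (median 46.8%), a difference of -2.85 (SE 0.40, adjusted p = 0.00501).

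GRMZM2G073427, which RefSeq lists with the synonym bZIP111, of the bZIP family of transcription factors (chromosome 1, 170573993 to 170578552), had 808 maize and 2224 TIL25 reads in leaf. Its leaf maize share was 28.4% with B73, 25.5% with Oh43 and 22.2% with W22, and the other crosses lay between 51.2 and 69.1% (median 62.7%), a difference of -2.28 (SE 0.23, adjusted p = 2.64e-05). The ear and stem differences were -2.02 (SE 0.44) and -2.57 (SE 0.53), the stem one not called without the crosses of TIL01 (adjusted p = 0.0787) or TIL11 (0.0643). Here the inbreds ran against the F1s in leaf, with 82 and 110 reads in B73 leaves and 13 and 33 in TIL25 leaves, but with the F1s in ear, with 11 and 12 reads in B73 and 35 and 27 in TIL25. glu1, the beta-glucosidase that frees the toxin DIMBOA, was called in leaf alone, at -3.89 (SE 0.91, adjusted p = 0.0448), with shares of 20.3% with B73, 9.79% with Oh43 and 2.37% with W22, against 20.97 to 99.7% in 12 other crosses (median 52.5%). This call was lost without B73xTIL25 replicate 1 or 2, Oh43xTIL25 replicate 1 or 2 or W22xTIL25 replicate 1 (adjusted p = 0.0541 to 0.149) and under several other settings.

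**Figure D3:**
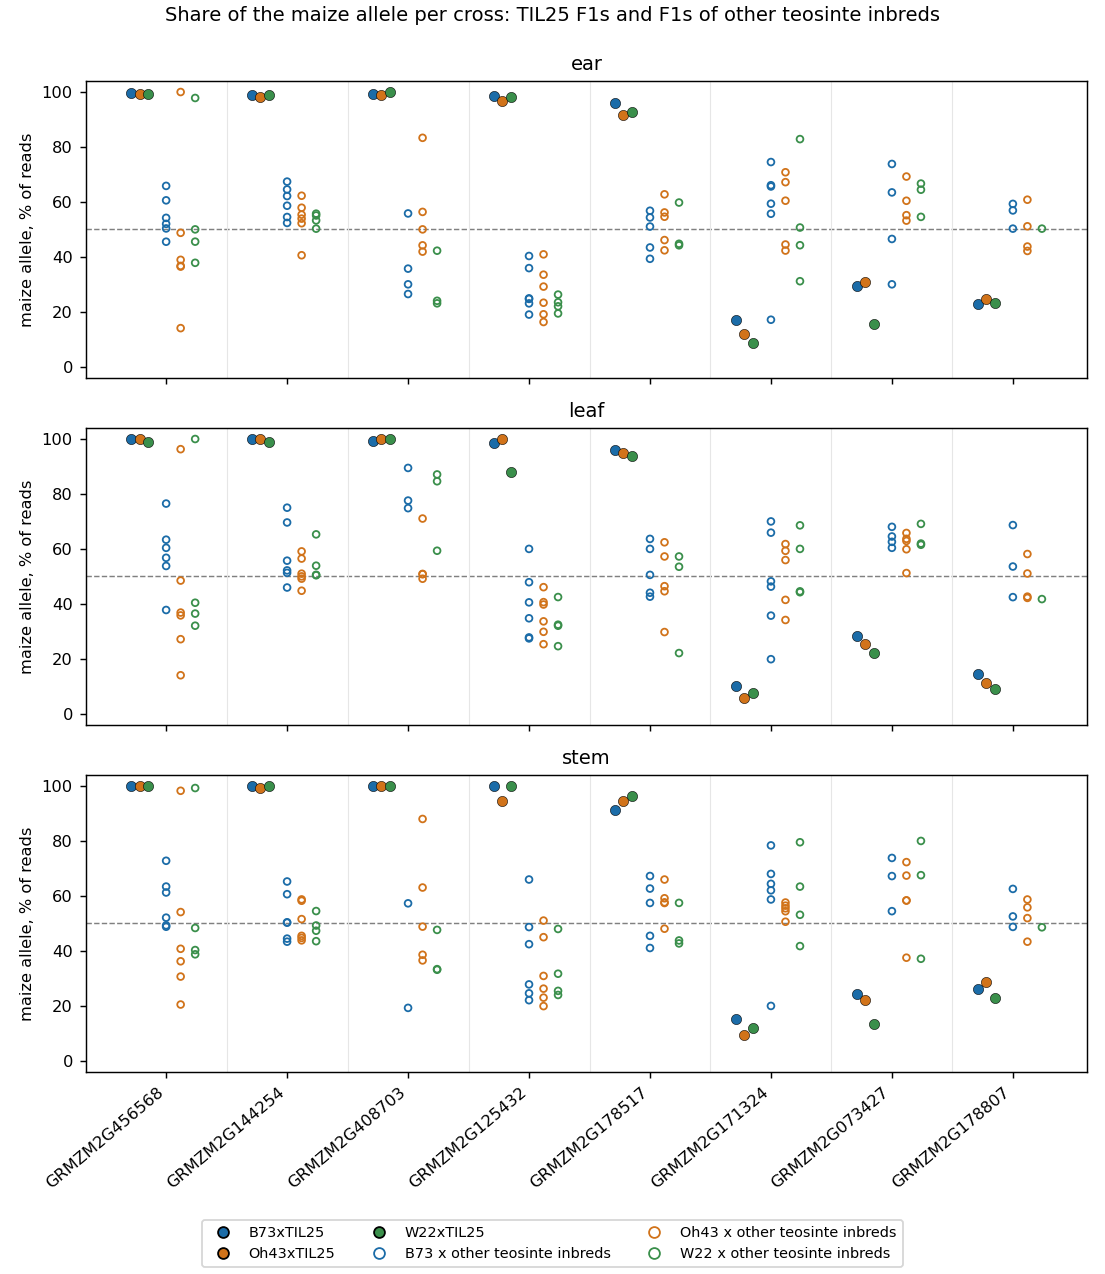
Maize share of allele reads (percent, y axis) by cross for 8 genes called between TIL25 F1s and other F1s, with filled points for the TIL25 crosses at the left and open points for the other crosses at the right, for crosses with at least 20 reads. For GRMZM2G144254 the TIL25 crosses sit near 100% and the other crosses near 50%, and for GRMZM2G171324 the TIL25 crosses sit lowest.

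Genes whose ratio differed from that of the other teosintes were not spread evenly. Chromosome 8 held 26 called genes of 882 tested in ear (2.95%), 22 of 829 tested in leaf (2.65%) and 22 of 903 tested in stem (2.44%), against 1.36%, 0.874% and 0.921% over all chromosomes in the same order. Chromosome 2 held 26 of 1087 in ear (2.39%) but 7 of 1004 in leaf (0.697%) and 10 of 1065 in stem (0.939%). A run of genes between 169637649 and 171408753 of chromosome 8, from GRMZM2G357873 to GRMZM2G310115, chosen after its values were seen, supplied 8 of the ear calls out of 26 genes tested there, 9 of the leaf calls out of 25 and 13 of the stem calls out of 26. All of them had the higher ratio in TIL25 F1s. The median difference over the genes of the run was 1.89 (ear), 1.81 (leaf) and 2.503 (stem), and it held 5 of the 31 genes called in the 3 tissues: AC218972.3_FG001, GRMZM2G068755, GRMZM2G166345, GRMZM2G166441 and GRMZM5G833389. GRMZM2G166441 had 555 maize and 80 TIL25 reads (ear), 766 and 69 (leaf) and 821 and 35 (stem), and 25 and 26 reads in B73 inbred ears against 0 in both TIL25 ears. AC218972.3_FG001 had 2869 maize and 426 TIL25 reads in ear, and 568 and 446 reads in B73 against 37 and 40 in TIL25 inbred ears.

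Within this run the libraries of Oh43xTIL25 did not behave alike. Genes were grouped in 3 stretches along the chromosome, of 5, 10 and 20 genes. In B73xTIL25 the library medians were 71.1 to 93.5% maize over the first stretch, 91.6 to 99.5% over the second and 80 to 89.2% over the third, and in W22xTIL25 they were 78.2 to 90%, 85.8 to 93.6% and 93.3 to 99.4%. In Oh43xTIL25 ear replicate 2 was high in all 3 stretches, at 75.5, 99.7 and 87.6%, whereas ear replicate 1 stood at 48.7, 53.1 and 52.98% and ear replicate 3 at 47.1, 49.6 and 53.3%. Leaf replicate 1 was high in the first stretch only, at 71.8, 57.1 and 56.3%, leaf replicate 2 reached 71.5, 93.2 and 61.04%, and the stem libraries reached 82.4, 94.3 and 59.4% and 81.8, 95.8 and 76.3%. Libraries of the same cross therefore fell on both sides, and the side switched along the chromosome within a library. In windows from 168500000 to 169680000 and from 172000000 to 173000000 the library medians were 38.6 to 53.8%. The first window takes in GRMZM2G357873 and GRMZM5G897342, the first genes of the run as bounded above, which were at 20 to 50% and 45.7 to 68.2% in B73xTIL25. Just past the run and before the second window GRMZM2G176028 and GRMZM2G091006 were still high in B73xTIL25, at 80.4 to 91.01% and 99.1 to 100%, against 54.3 to 74.4% and 64.7 to 76.4% in W22xTIL25. Without the run, 1.16% of genes (ear), 0.704% (leaf) and 0.730% (stem) were called against the other teosintes. What distinguished the Oh43xTIL25 plants was not tested.

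**Figure D4:**
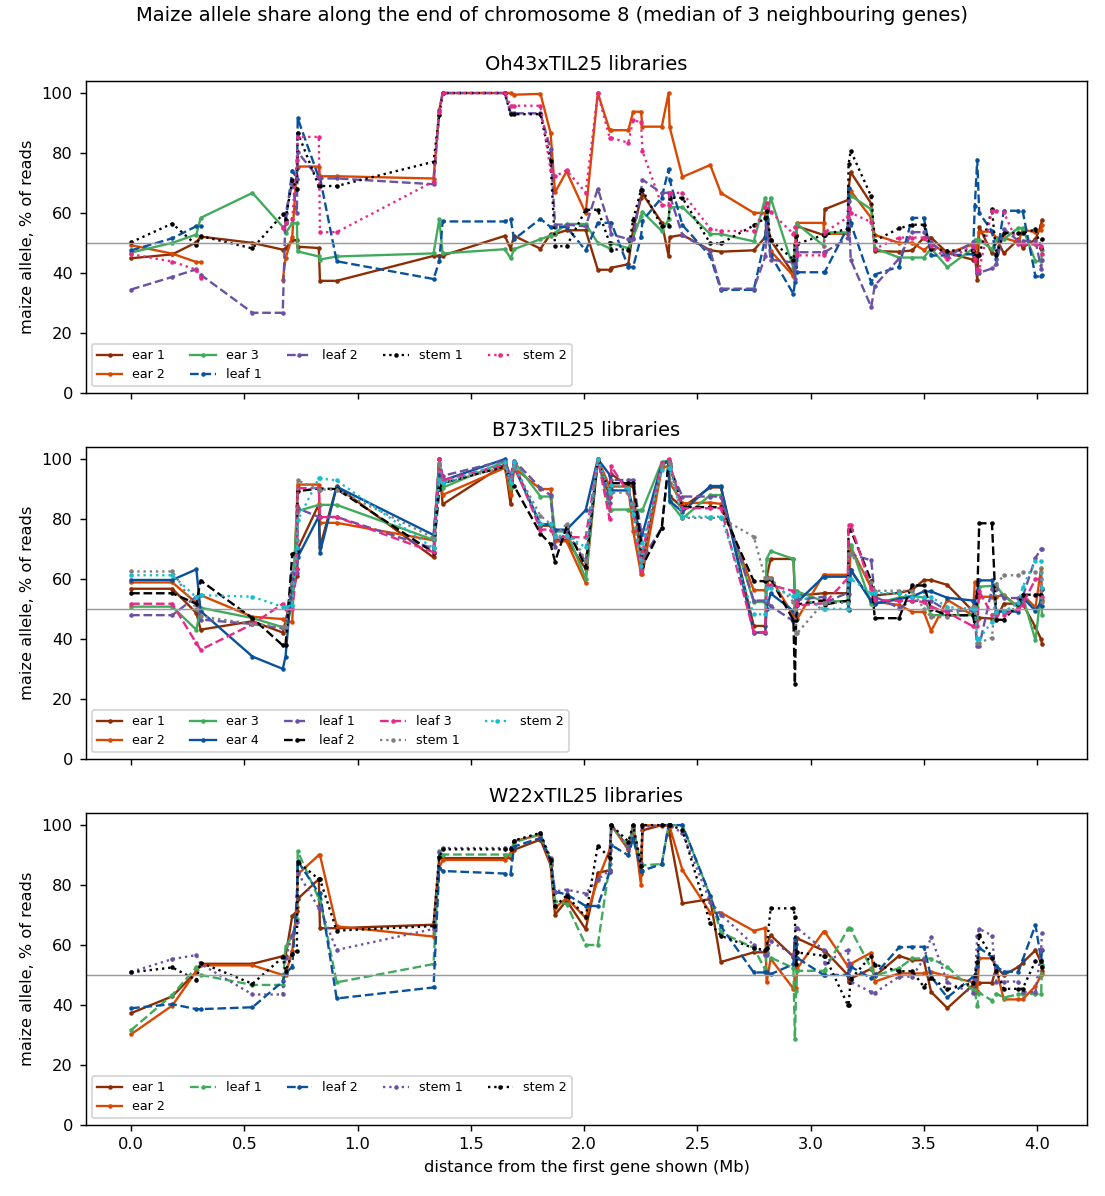
Maize share of allele reads (percent, median of 3 neighbouring genes, y axis) along a stretch of chromosome 8 in Oh43xTIL25, B73xTIL25 and W22xTIL25, with 1 line per library. In the middle of the stretch all B73xTIL25 and W22xTIL25 lines are high, whereas Oh43xTIL25 ear replicates 1 and 3 stay near 50%.

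The maize parent mattered for a minority of genes. The ratio to TIL25 differed among B73, Oh43 and W22 for 17.1% of genes in ear (1778), for 13.9% in leaf (1320) and for 11.5% in stem (1176). The clearest split was GRMZM2G161868 (chromosome 3, 202363125 to 202365652). Oh43xTIL25 gave 343 maize and 0 TIL25 reads in ear and 240 and 0 in leaf. The other crosses were the reverse, with 0 maize and 296 TIL25 reads in ear with B73 and 0 and 306 in leaf with W22. The sites of the 3 crosses differ, and the TIL25 inbred had 8 and 9 ear reads at the B73 and W22 sites but 0 and 0 at the Oh43 sites, so TIL25 transcript was read at one set of sites and not at the other.

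kin2 (GRMZM2G180704) was balanced with B73 and W22 and almost wholly maize with Oh43. Its maize share with Oh43 was 90.3 to 100% over the ear, leaf and stem libraries, against 43.7 to 52.9% in the libraries of the other 2 crosses. The reverse was true of the calreticulin gene crt2 (GRMZM2G358059), a chaperone of the endoplasmic reticulum. Its ear share was 5.43, 4.36 and 3.81% in the 3 Oh43xTIL25 libraries, against 49.6 to 52.9% with B73 and 51.5 to 53.8% with W22, and in stem it was 8.25% with Oh43. In leaf rca1 had 2 maize and 2046 TIL25 reads with Oh43, against 536 and 628 with B73 and 1541 and 1462 with W22. In each of these 3 genes Oh43xTIL25 was the cross that differed. For kin2 the TIL25 reads were the few ones there, with 13 in ear beside 319 maize reads. Ear held 859 TIL25 reads of kin2 with B73 and 537 with W22. Whether the sites read in each cross played a part in these splits was not tested.

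W22 and B73 supplied other cases. The glutamine synthetase gene gln3 had 8 maize and 559 TIL25 reads in stem with W22, against 220 and 314 with Oh43. Over the 3 crosses it had 274 and 1029 stem reads, and TIL25 was the higher allele in all 6 stem libraries, those of B73xTIL25 included. GRMZM2G166985 on chromosome 10 had 0 maize and 1384 TIL25 reads in stem with W22, a W22 allele at least 461-fold lower, but 788 and 327 with B73 and 778 and 737 with Oh43. GRMZM2G063592, also on chromosome 10, had 0 and 615 reads in ear with W22, whereas both alleles were read with B73 and Oh43, with 85 and 97 TIL25 reads. GRMZM2G091006 (chromosome 8, 171559346 to 171564823) had 513 maize and 0 TIL25 reads in leaf with B73, while with Oh43 TIL25 was the higher allele and 65 maize reads were found.

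Chromosome 10 and the end of chromosome 6 were low throughout in W22 crosses. In W22xTIL25 the median log2 ratio over chromosome 10 was -0.30 (ear), -0.22 (leaf) and -0.34 (stem), and past 160 Mb of chromosome 6 it was -0.99, -0.95 and -1.0, whereas with B73 and Oh43 the medians of both regions lay between -0.07 and 0.05. Genes with a maize-parent difference made up 37.7% of 677 tested on chromosome 10 in ear and 48.6% of those at the chromosome 6 end, against 15.3% elsewhere. The W22 ratio was the lowest of the 3 in 47 of the 51 genes called at the chromosome 6 end. The same windows were low in the W22 crosses to the other teosintes. With both regions set aside, 1414 genes differed by maize parent (ear), 1064 (leaf) and 858 (stem), and the tests of the alleles in TIL25 F1s called 3850, 3261 and 3118.

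The last comparison asked whether the 2 alleles were balanced differently in different tissues. Between ear and leaf 1168 of 8779 genes differed (13.3%), 557 with the higher maize ratio in ear (6.34%) and 611 with the higher ratio in leaf (6.96%). Between ear and stem 373 of 9711 differed (3.84%), with 1.88% higher in ear and 1.96% lower, and between leaf and stem 477 of 8936 (5.34%), with 2.84% higher in leaf and 2.5% lower. For 661 of the 1168 ear-leaf genes and 250 of the 477 leaf-stem genes the favoured allele itself was the other one. These counts stand without the matching count over all tested genes, and do not by themselves mark switches of allele. Among the 1611 genes called in all 3 tissues, 53 did not keep their direction. Most differences were modest, with medians of 0.74, 0.69 and 0.83 on the log2 scale. Without the libraries with a stretch apart 7.96% of genes differed between ear and leaf, 2.61% between ear and stem and 1.97% between leaf and stem. Fewer libraries remained there, and the part due to the stretches was not tested. Without W22xTIL25 stem replicate 2 alone, a library with no such stretch, 3.67% differed between leaf and stem.

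GRMZM2G126858 (chromosome 10, 142431769 to 142438155) switched alleles in leaf. Its maize share was 75.5 to 90.5% in ear (median 83.3%), 10.6 to 31.1% in leaf (median 20.5%) and 72.1 to 86.7% in stem (median 76.9%), so that every leaf library lay below every ear and stem library. The ear and leaf ratios differed by 4.25 (SE 0.26, adjusted p = 5.82e-12) and the leaf and stem ratios by -3.80 (SE 0.31, adjusted p = 3.01e-07), with the same order in the 3 crosses. glu1 also leaned to TIL25 most in leaf: the maize share was 39.8 to 80.6% in ear (median 47.98%), 1.68 to 34.6% in leaf (median 8.74%) and 14.2 to 52.6% in stem (median 43.2%), an ear-leaf difference of 3.53 (SE 0.52, adjusted p = 3.15e-05). The gene was most abundant in stem, with 21445 maize and 40628 TIL25 reads.

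For other genes the maize allele was the more abundant one in leaf. The lipoxygenase gene lox5 had maize shares of 44.7 to 66.3% in ear (median 48.8%), 73.98 to 100% in leaf (median 93.3%) and 37.6 to 71.8% in stem (median 55.2%). Its ear-leaf difference was -2.91 (SE 0.31, adjusted p = 2.76e-07) and every leaf library lay above every ear and stem library. afd1, which encodes a meiotic cohesin subunit, had shares of 50.0 to 75.7% in ear against 78.6 to 100% in leaf, a difference of -2.36 (SE 0.37). lpa1, a transporter gene needed for phytic acid storage, was on the TIL25 side in ear, with shares of 17.7 to 44.2% (median 31.4%). In leaf its maize share was 46.8 to 77.1% (median 59.8%), with maize the higher allele in 5 of 7 libraries. The ear-leaf difference was -1.82 (SE 0.25).

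Between ear and stem, si1 and zmm16, both B-class floral organ genes, were near balance in ear and leaned to TIL25 in stem. zmm16, a PISTILLATA-type gene, had maize shares of 30 to 59% in ear (median 46.6%) against 0 to 46.2% in stem (median 15.6%), with a difference of 1.47 (SE 0.36, adjusted p = 0.0149). The stem reads of zmm16 were few, at 35 maize and 110 TIL25 reads, and the call was lost with the replicate number as a block (1.47, adjusted p = 0.0505) and without B73xTIL25 stem replicate 1 (1.18, adjusted p = 0.107). kin1 went the other way, with shares of 36.7 to 66.7% in ear against 67.5 to 86.1% in stem and a difference of -2.0 (SE 0.25, adjusted p = 8.21e-06), and its libraries did not overlap. Between leaf and stem GRMZM2G105822 had maize shares of 68.97 to 100% in leaf (median 100%) but 42.9 to 52.7% in stem (median 49.6%), a difference of 3.83 (SE 0.53, adjusted p = 0.000159).

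Of the 1611 genes called in all tissues, 53 did not keep their direction. Besides GRMZM2G126858, glu1 and kin1 they included GRMZM2G162276, at 1.88 (ear), -0.28 (leaf) and -0.72 (stem), and GRMZM2G095164, at -1.84, 1.60 and 1.22. sm2 was toward TIL25 in ear (-0.88) and stem (-1.63) and toward maize in leaf (0.44). In bulk tissue a shift in the cells that contribute transcript and a shift of the allele ratio within cells cannot be told apart.

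**Figure D5:**
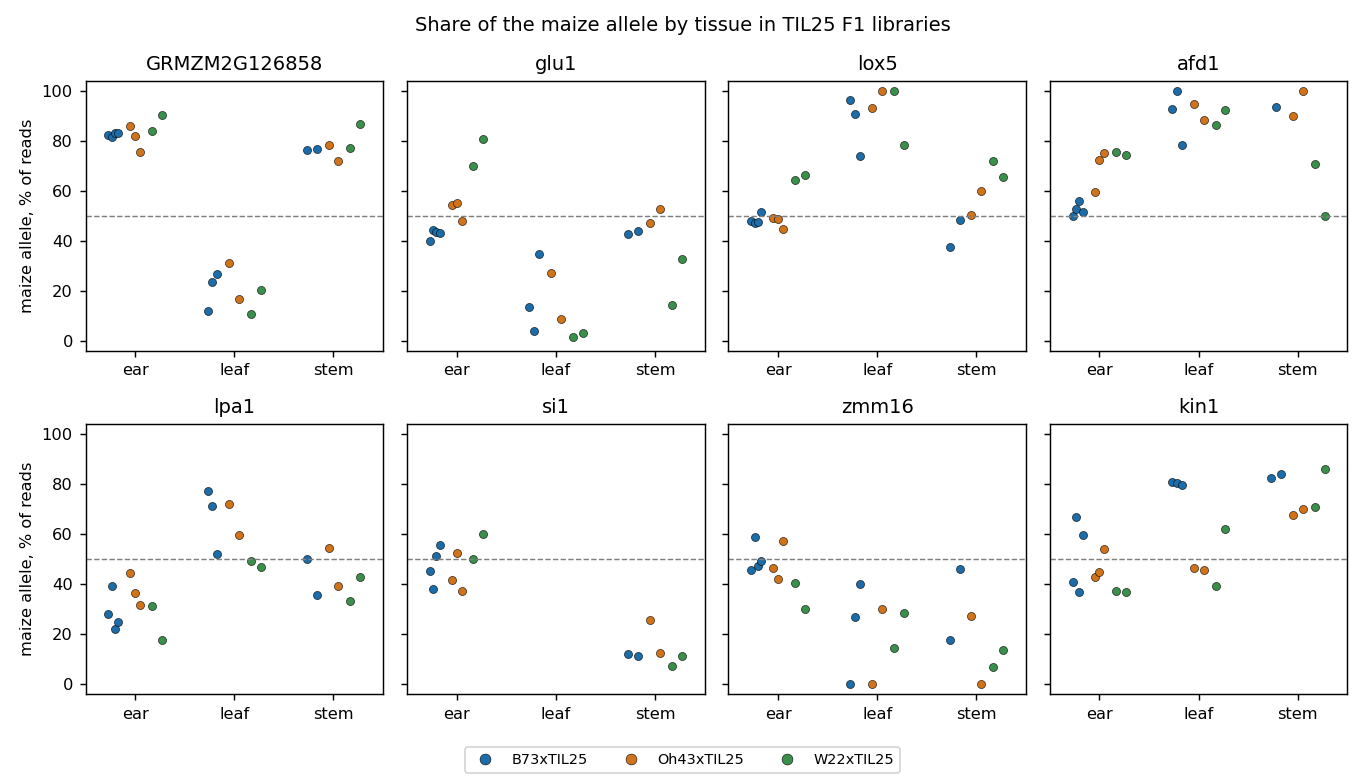
Maize share of allele reads (percent, y axis) in ear, leaf and stem for 8 genes, one point per TIL25 F1 library. GRMZM2G126858 is high in ear and stem (75.5 to 90.5% and 72.1 to 86.7%) and low in leaf (10.6 to 31.1%), and lox5 is highest in leaf (73.98 to 100%).

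The inbred parents B73 and TIL25, with 2 libraries each per tissue, were read at the same sites as B73xTIL25. Between them 1426 of 8525 genes differed in ear (16.7%), 7.35% higher in B73 and 9.37% higher in TIL25. In leaf 1772 of 7911 differed (22.4%), 12.8% higher in B73 and 9.62% higher in TIL25, and in stem 79 of 8229 (0.96%), 0.462% and 0.498%. These counts rested on single libraries. In ear they ran from 5.79% without B73 replicate 2 and 7.82% without B73 replicate 1 up to 34.2% without TIL25 replicate 1 and 43.04% without TIL25 replicate 2. In leaf they fell to 9.796% without B73 replicate 2 and 14.2% without TIL25 replicate 1, and in stem edgeR called 13.4% without B73 replicate 1, 9.02% without B73 replicate 2 and 0 without either TIL25 library, where all 4 libraries gave 1250 genes at an unadjusted p below 0.05. Direction was compared without a test. Of genes called toward maize in the TIL25 F1s, B73 was the higher inbred for 77.9% in ear (1269 of 1629), 73.1% in leaf and 81.4% in stem. Of genes called toward TIL25, the TIL25 inbred was the higher for 75%, 64.4% and 72.9%. Over all genes B73 was the higher for 50.0%, 49.9% and 52.3%. Across genes, which are not independent replicates and share libraries and sites, the correlation between the inbred and the F1 log2 ratio was 0.75 (ear), 0.63 (leaf) and 0.74 (stem).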

How the data were processed

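RNA from ear, leaf and stem was sequenced strand-specifically after poly(A) selection. Per the labels and the study's methods, the authors aligned reads with Bowtie to the combined pseudo-transcriptomes of both parents, kept perfect alignments, and deposited read counts for the maize and the teosinte base at each segregating site (B73 AGPv2). A read over several sites counts at each. Restricting each gene to its deepest site was one alternative.

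Site counts were summed per gene and library. Of 52920 genes with sites, 16630 (31.4%) matched a RefSeq gene (Zm-B73-REFERENCE-NAM-5.0, used for names only), 194 of them with a symbol. No genome sequence was used here.

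Genes needed 100 reads in all and 20 per cross, and, against other teosintes, 6 other crosses of 3 inbreds. Counts were tested with edgeR 4.0.16 (quasi-likelihood, R 4.3.3, limma 3.58.1) without scaling between alleles, with the library, or the cross in the comparison with other teosintes, as a block, and with TMM for the inbred parents. Calls used a Benjamini-Hochberg adjusted p below 0.05. DESeq2 1.42.0, TMM, a minimum of 10 reads, an adjusted p below 0.005, an exact binomial test with a pseudocount of 0.5 for its ratio, and each library, maize parent or teosinte inbred left out were alternatives. The scripts were tested on simulated data. A read floor of 3 was used for alleles at 0.

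Named genes were the study's domestication candidates, the 5 genes with the largest ratio each way among called genes with 1 direction in every library, the 5 largest differences each way from other teosintes, the 5 largest each way among genes with a symbol, the 3 largest differences between maize parents and between tissues, and called members of 6 lists. The text names the clearest of these, and genes known only by a RefSeq synonym were added after their values were seen. The members and lists were chosen with earlier results of these data known. Tables and plots used Python 3.11.15 with pandas 2.3.3, numpy 2.4.6, scipy 1.17.1 and matplotlib 3.10.9.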

Additional observations from a re-analysis of the deposited data

Results flagged for a closer look

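One of 28 groups of libraries tested had a library far from its fellows. Among the ear libraries of TIL25 F1s one held 2688098 allele reads, and chance flags about 1 in 20 groups. Among TIL25 crosses not compared above, the lowest maize share of a Mo17xTIL25 library was 96.3%, far from the 49.2 to 51.2% of the TIL25 F1s analysed.

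Crosses differed in the allele ratio, by the edgeR test of the maize parents, at the named genes. In ear the adjusted p was 5.66e-17 for GRMZM2G161868, 7.2e-14 for GRMZM2G063592, 5.38e-14 for GRMZM2G168953, 7.93e-12 for kin2 and 3.53e-23 for crt2. GRMZM2G168953 had 0 maize reads with W22, against 543 with B73 and 404 with Oh43. In leaf it was 6.97e-10 for GRMZM2G161868, 1.24e-07 for GRMZM2G011355, 7.75e-10 for GRMZM2G091006, 7.44e-14 for rca1 and 5.45e-08 for kin2. GRMZM2G011355 (chromosome 10, from 13634723) had 0 TIL25 reads with Oh43, against 0 maize and 68 TIL25 reads with W22. In stem it was 7.08e-09 for GRMZM2G161868, 1.04e-06 for GRMZM2G011355, 1.79e-11 for GRMZM2G166985, 2.24e-06 for gln3 and 1.85e-07 for kin2. With DESeq2 the stem result of GRMZM2G161868 was not called (0.182).

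Tissues differed in the allele ratio, by the edgeR test of the difference. Between ear and leaf the adjusted p was 7.5e-05 for GRMZM2G069260, 3.54e-05 for GRMZM2G101390, 5.82e-12 for GRMZM2G126858, 3.15e-05 for glu1, 2.76e-07 for lox5, 6.64e-05 for afd1 and 1.01e-05 for lpa1. Between ear and stem it was 0.000222 for GRMZM2G150496, 0.00202 for GRMZM5G833389, 0.0299 for GRMZM2G069260, 8.21e-06 for kin1 and 0.0149 for zmm16. GRMZM2G069260 and GRMZM5G833389 lie in the run on chromosome 8 where Oh43xTIL25 libraries stood on both sides, and their values without those libraries are given below. With DESeq2 GRMZM2G069260 was not called between ear and leaf (adjusted p = 0.361) or ear and stem (0.857), nor GRMZM5G833389 (0.328) or GRMZM2G150496 (0.176) between ear and stem, and with the replicate block GRMZM2G069260 (0.117) and zmm16 (0.0505) were not. Between leaf and stem it was 3.01e-07 for GRMZM2G126858, 0.00487 for GRMZM2G101390, 0.000159 for GRMZM2G105822, 5.89e-05 for lox5 and 0.000418 for glu1.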

How the results depend on the processing

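Counts of called genes are given here as percentages of the genes tested, in the order ear, leaf, stem. At an adjusted p below 0.005 the alleles of TIL25 F1s were called for 28.2, 22.6 and 20.4%, with crosses as units for 2.36, 1.503 and 0.823%, with the deepest site alone for 31.006% of ear and 30.9% of leaf genes, and with CML103xTIL25 and Mo17xTIL25 added for 63.8% (leaf) and 70.7% (stem). Against other teosintes 0.403, 0.288 and 0.353% were called at 0.005, 4.23, 3.47 and 3.91% with DESeq2, 0.472, 0.553 and 0.462% with the deepest site, 9.59, 3.37 and 2.64% with libraries as units and no replicate block, and 7.49, 2.61 and 2.48% with that block. Against TIL01, TIL03 and TIL11 alone 0.380% (leaf) and 0.503% (stem) were called, and in stem 1.39% with TMM and 1.41% without B73xTIL01. For the maize parents 10.3, 7.12 and 6.49% were called at 0.005, 11.8% in ear with the deepest site and 7.90% in leaf without the libraries that had a stretch apart. Between ear and leaf, ear and stem, and leaf and stem 5.46, 1.19 and 1.298% were called at 0.005 and 6.37, 1.76 and 2.48% with the deepest site. With the replicate block 2.19% were called between ear and stem, and without the stretch libraries 7.96% between ear and leaf and 1.97% between leaf and stem. For the inbred parents 4.47, 1.69 and 0% were called at 0.005 in edgeR, where stem had 1250 genes at an unadjusted p below 0.05 and DESeq2 called 301 at 0.005. A minimum of 10 reads gave 15.96, 21.2 and 1.68%, over more genes, the replicate block 40.5% (leaf) and 4.53% (stem), and DESeq2 7.13% (stem). The causes were not tested. With 1 library left out the alleles were called for 34.7 to 40.4, 30.7 to 35.6 and 27.02 to 31.1%, against other teosintes for 1.09 to 1.42, 0.702 to 1.08 and 0.814 to 0.985%, between maize parents for 14.5 to 15.995, 10.9 to 12.9 and 8.17 to 11.7%, in the inbreds for 5.79 to 43.04, 9.796 to 25.2 and 0 to 13.4%, and between tissues for 11.3 to 13.5, 3.08 to 3.75 and 3.67 to 5.79%. Between crosses within a tissue, deviations of same-numbered libraries correlated at -0.07 to 0.04, so replicate numbers showed no pairing there. Where crosses have 2 libraries each, same-numbered and other correlations differ only in sign by construction. Whether replicate numbers pair plants between tissues was not tested. Under the replicate block the alleles were called for 40.9, 35.7 and 33.6% and the maize parents for 15.1, 11.4 and 10.8%. Over the alternatives tried for named results, 1437 values kept direction and call, 20 reversed, 2 gained a call and the rest lost it. The losses fell on 68 named results, among them tb1, zagl1, prr59, si1 and frk2 with crosses as units, where 48 of 69 allele ratios lost the call. With that setting set aside 44 results lost it under some other alternative, 29 of the 69 allele ratios, 9 of 22 differences from other teosintes, 5 of 17 between tissues and 1 of 15 between maize parents. With 1 library left out 1000 kept both, 25 lost the call and 2 reversed. The reversals were zmm19, near 0, in leaf (-0.025 with TMM, -0.021 with DESeq2, -0.054 in the binomial test, -0.0050 with crosses as units, -0.017 with the deepest site, -0.060 without B73, -0.12 without W22, -0.034 without the stretch libraries, and -0.052 to 0.071 with 1 library left out) and stem (-0.021 with the deepest site). With CML103xTIL25 and Mo17xTIL25 added, me3 (0.79), ppdk1 (1.07), bm1 (0.62), sh1 (0.72) and mlo7 (0.14) reversed in leaf and me3 (0.072), fea3 (0.56) and gigz1b (1.04) in stem. Without the stretch libraries GRMZM2G069260 reversed between ear and leaf (0.76) and ear and stem (1.74), and GRMZM5G833389 between ear and stem (1.55). Depth limits genes under 100 reads, tga1 and stem tb1 among them.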
